A study of Rattus norvegicus with 36 samples.

Results

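Growth hormone responsive genes of the liver were followed across an exposure study of decabromodiphenylethane (DBDPE), a brominated flame retardant, in the rat. The members are 10 genes (Bcl6, Cish, Socs2, Socs3, Onecut1, Igf1, Igfals, Ghr, Stat5b and Cux2) of the 14217 genes that the arrays name. They were taken as every probe set whose platform symbol is one of these names, which gave 16 of 31042 probe sets. The genes were chosen by their log2 levels by dose and their covariation between animals in these arrays, so the values of both are given as a description, and tests are read only for probe sets of other genes. Livers came from 36 male Harlan Sprague Dawley rats, which were 7 weeks old at the start and were fed the NTP-2000 diet. All animals, controls included, were gavaged with corn oil at 5 ml/kg for 5 days in a row, and the left liver lobe was taken 1 day after the final dose. The 6 groups of 6 received corn oil alone (0 mg/kg, called vehicle here) or DBDPE, at 970 mg/kg as the highest dose, 97.1 and 9.71 mg/kg below it, and 0.97 and 0.1 mg/kg as the lowest. No strain, genotype or transgene separated the groups. Each sample was hybridised to 1 Affymetrix 3′ IVT array, and all levels are log2 signals, on which a step of 1 is a doubling.

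Growth hormone is released by the pituitary in pulses and binds its receptor, Ghr, on the hepatocyte. The receptor's kinase, Jak2, phosphorylates the transcription factor Stat5b, which enters the nucleus and binds palindromic DNA elements. Early Stat5b targets include Cish, Socs2 and Socs3, which are SOCS family proteins that feed back on the receptor, and the slower outputs include Igf1, the main circulating growth factor made by liver, and Igfals, the protein that holds it in a ternary complex in blood. Bcl6 is a transcriptional repressor that is kept low by growth hormone and binds many Stat5 sites. Onecut1 (also called HNF6) is a liver-enriched transcription factor that growth hormone induces, and Cux2 is a repressor found in female liver, where growth hormone is present more continuously. In male rats the pulses come hours apart, with troughs between them in which the hormone is nearly absent from blood.

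The elements that Stat5 proteins bind have the spelling TTCNNNGAA, which reads the same on both strands. RefSeq promoters (rat GRCr8, 250 bases before to 50 after the annotated start) were at hand for 8 of the 10 members, Socs2 and Onecut1 being the others. The Cish promoter is printed because it alone of the 8 held this spelling, 4 times over, and because Cish is one of the members that differ most between animals. It lies at chr8:116850719-116851018 on the + strand, with the 4 elements in capitals.

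Cish: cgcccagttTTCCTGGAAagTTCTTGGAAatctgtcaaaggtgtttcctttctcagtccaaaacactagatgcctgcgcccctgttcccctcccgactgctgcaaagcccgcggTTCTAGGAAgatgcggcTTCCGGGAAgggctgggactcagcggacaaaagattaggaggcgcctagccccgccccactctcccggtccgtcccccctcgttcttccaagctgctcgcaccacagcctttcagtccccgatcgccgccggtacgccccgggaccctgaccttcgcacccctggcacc

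The elements were TTCCTGGAA at -241 to -233, TTCTTGGAA at -230 to -222, TTCTAGGAA at -136 to -128 and TTCCGGGAA at -119 to -111, counted from the start site. At least 1 such spelling occurred in 8.87% of 33469 rat promoters of this length (2970 promoters), and 2 of them (0.00598%) held 4 or more. The windows of Socs3, Bcl6, Cux2, Igf1, Igfals, Ghr and Stat5b held none. The letters ATTGAT, the core of the element that Onecut1 and Cux2 bind, occurred on either strand in 1 of the 8 windows, that of Ghr, and in 8.06% of all promoters. A match of letters is not a measured binding site, and these arrays did not measure binding.

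The feedback inhibitors Cish and Socs2 and the transcription factors Bcl6 and Onecut1 differed between individual animals far more than most liver transcripts did, also within a dose group. In bulk liver, fewer cells that express a gene and less RNA per cell cannot be told apart. Over the 36 animals Bcl6 ranged from 5.58 to 10.5, which is 30.6-fold. Its SD between animals of the same dose group was 1.32, the 12th largest of the 31042 probe sets, for which the median was 0.137. Onecut1 ranged from 5.90 to 10.6, or 26.3-fold, and its SD of 1.45 was the 10th largest. Cish ranged from 5.10 to 8.33, or 9.33-fold, with an SD of 1.02 at rank 23. Socs2 ranged from 6.04 to 9.20, or 8.94-fold, with an SD of 0.81 at rank 54. Second probe sets of Cish and Onecut1 ranked 17 and 15. They followed the first ones at r = 0.97 and r = 0.99 over the animals with the dose group means removed, so the spread appeared in separate measurements of the same RNA.

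The hormone's receptor, its transcription factor and its slow outputs varied much less in the same livers. Igf1 lay between 13.1 and 13.4 in all 36 animals at its brightest probe set, with an SD of 0.05 that was smaller than that of all but 0.55% of probe sets. The other 2 Igf1 probe sets had SDs of 0.11 (percentile 25.1) and 0.09 (percentile 7.1). Ghr lay between 11.6 and 11.9 at its brightest probe set, with an SD of 0.07 (percentile 3.2), and the other one had an SD of 0.14 (percentile 57.7). Stat5b had an SD of 0.13 (percentile 39.9). Igfals stood between these and the 4 most variable members, at 9.51 to 10.6 with an SD of 0.22 (percentile 91.7). Socs3 had a like SD of 0.22 (percentile 92.8), at levels of 3.93 to 4.99, which lie below every array median (5.07 to 5.12). Cux2 lay at 3.00 to 3.43 in these males, also below every array median, with an SD of 0.09 (percentile 9.2). Its other probe set had an SD of 0.15 (percentile 60.6). How much of the spread of Socs3 and Cux2 is background signal was not tested. The mean signals of Igf1 and Ghr were at percentiles 99.8 and 98.6 of all probe sets, and whether saturation narrowed their spread was not tested. Levels of different genes are not compared here, since probe sets differ in their response.

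In vehicle livers Bcl6 had a lowest, median and highest level of 7.50, 9.45 and 10.4. At 0.1 mg/kg these were 6.44, 7.35 and 10.5, and at 0.97 mg/kg they were 6.18, 8.61 and 10.4. Both of these groups spanned nearly the whole range of the gene. At 9.71 mg/kg they were 5.58, 6.39 and 6.87, at 97.1 mg/kg 6.07, 6.61 and 10.1, and at 970 mg/kg 6.52, 7.17 and 9.05. All 6 animals at 9.71 mg/kg lay below the lowest vehicle animal, while the other dose groups overlapped vehicle. By their means the groups ran from vehicle (9.06 ± 1.26, SD, n = 6) through 0.97 mg/kg (8.50 ± 1.56), 0.1 mg/kg (8.20 ± 1.77), 970 mg/kg (7.42 ± 0.94) and 97.1 mg/kg (7.08 ± 1.52) to 9.71 mg/kg (6.30 ± 0.46). No pair of neighbours in that order differed by more than the larger of their SDs.

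Onecut1 had a lowest, median and highest level of 5.90, 7.18 and 9.50 in vehicle, 6.21, 9.67 and 10.2 at 0.1 mg/kg, and 6.49, 7.87 and 10.4 at 0.97 mg/kg. The corresponding levels were 7.57, 9.87 and 10.2 at 9.71 mg/kg, 6.42, 9.85 and 10.6 at 97.1 mg/kg, and 6.32, 8.95 and 9.86 at 970 mg/kg. Every dose group held animals within the vehicle range. By the medians vehicle was the lowest group for Onecut1 and the highest for Bcl6.

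Cish, a SOCS family inhibitor of the receptor, had a lowest, median and highest level of 5.33, 6.07 and 8.09 in vehicle, 5.10, 6.69 and 8.06 at 0.1 mg/kg, and 5.14, 5.51 and 7.29 at 0.97 mg/kg. These were 5.42, 7.44 and 7.78 at 9.71 mg/kg, 6.32, 7.35 and 7.77 at 97.1 mg/kg, and 6.67, 7.82 and 8.33 at 970 mg/kg. The lowest levels thus lay between 5.10 and 5.42 in vehicle and the 3 lowest doses, and were 6.32 and 6.67 at the 2 highest doses. At the other Cish probe set the lowest levels were 5.78 at 97.1 mg/kg and 6.05 at 970 mg/kg, beside 5.13 in vehicle. Socs2, which limits growth by targeting the activated receptor for degradation, had a lowest, median and highest level of 6.04, 7.40 and 7.88 in vehicle and 6.12, 8.20 and 8.93 at 970 mg/kg. Between them lay medians of 8.15, 7.80, 8.56 and 7.92 in order of rising dose, with overlap in every group. For Onecut1, Cish and Socs2, too, neighbours in the order of the group means differed by less than the larger of their SDs.

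**Figure D1:**
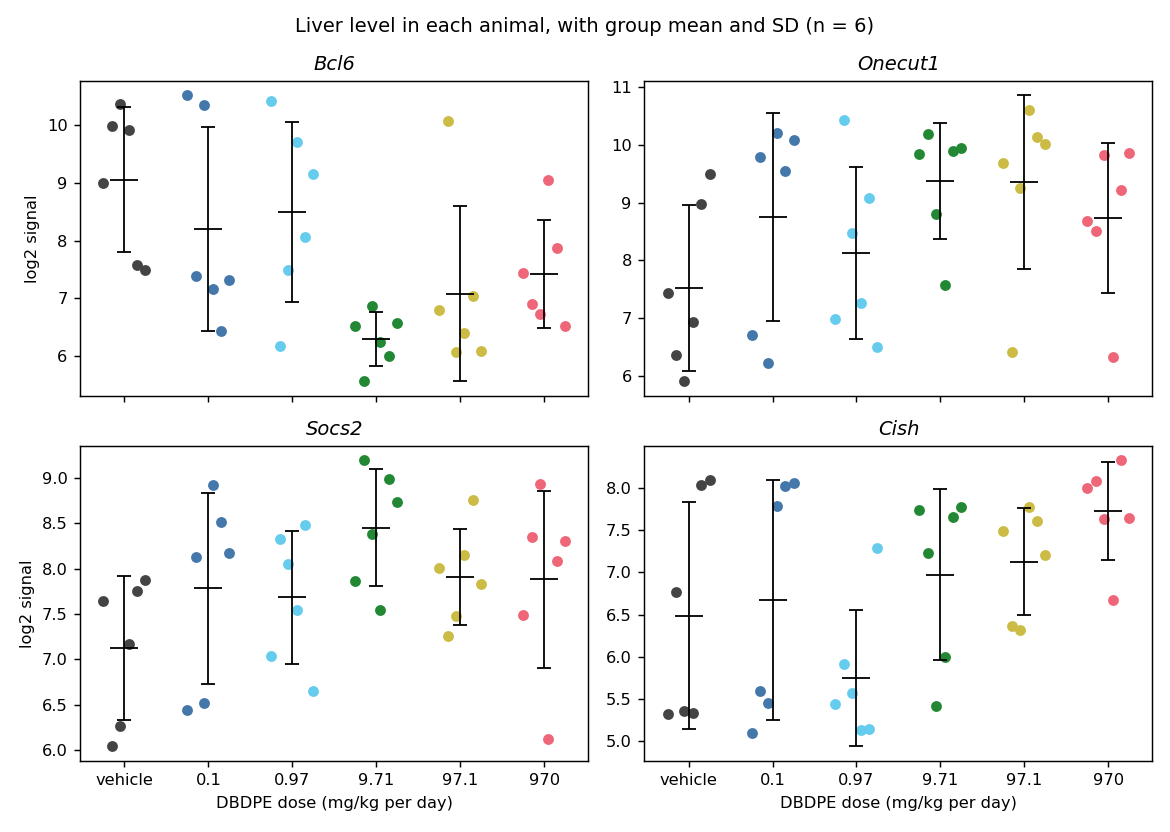
Log2 level of Bcl6, Onecut1, Socs2 and Cish (vertical axes) in every animal, by dose group (horizontal axes, mg/kg). Points are the 6 animals of a group, with the mean and its SD. Within a group Onecut1 spans at least 2.62 log2 units, Bcl6 1.30 to 4.24, Cish 1.46 to 2.96 and Socs2 up to 2.82. The brightest probe sets of Igf1, Ghr and Stat5b, which are not drawn, stay within 0.62 of a log2 unit over all 36 animals.

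Differences from vehicle are given with their limma errors as a description, since the levels by dose helped to choose the genes, and nothing is read from whether a member passed. At each of the 5 doses 0 of the 16 member probe sets had a limma adjusted p under 0.05, where 0% of all probe sets did at 0.1, 0.97 and 9.71 mg/kg and 0.00644% (2 of 31042) at 97.1 and 970 mg/kg. Without adjustment, 0, 0, 4, 3 and 2 of the 16 probe sets had a p under 0.05 in order of rising dose. Over all probe sets these shares were 4.46%, 4.92%, 5.06%, 5.42% and 4.87%. The 5 comparisons share their vehicle animals, so a high or low vehicle group moves all of them.

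Of the 50 differences from vehicle (10 genes at 5 doses), 7 had a 95% interval that left out 0 before any adjustment, all in 4 genes that vary together; of all probe sets, 4.46% to 5.42% had such an interval at a dose. For Bcl6 the log2 difference was -2.75 (interval -4.19 to -1.32) at 9.71 mg/kg, -1.98 (-3.41 to -0.54) at 97.1 mg/kg and -1.64 (-3.07 to -0.20) at 970 mg/kg. For Onecut1 it was 1.86 (0.29 to 3.43) at 9.71 mg/kg and 1.84 (0.27 to 3.41) at 97.1 mg/kg. Socs2 had 1.33 (0.45 to 2.21) at 9.71 mg/kg, and Cish had 1.24 (0.13 to 2.35) at 970 mg/kg. The other Cish probe set had 1.03 there, with an interval that held 0 (-0.24 to 2.30). The other Onecut1 probe set had 1.68 (0.34 to 3.02) at 9.71 mg/kg and 1.66 (0.32 to 3.01) at 97.1 mg/kg. Only 1 of the 50 had groups without overlap, Bcl6 at 9.71 mg/kg. Among all probe sets the share without overlap was 0.18% at that dose, and 0.139%, 0.235%, 0.151% and 0.2% at 0.1, 0.97, 97.1 and 970 mg/kg.

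The members of small spread had narrower intervals at the same group size. At 970 mg/kg the log2 difference of Igf1 was 0.01 (95% interval -0.07 to 0.09) at its brightest probe set, and the intervals of its other 2 were -0.13 to 0.14 and -0.09 to 0.13. For Igfals it was 0.05 (-0.19 to 0.29), or -0.08 without vehicle replicate 3. For Ghr it was 0.00 (-0.09 to 0.10) at the brightest probe set and 0.08 (-0.09 to 0.24) at the other.

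**Figure D2:**
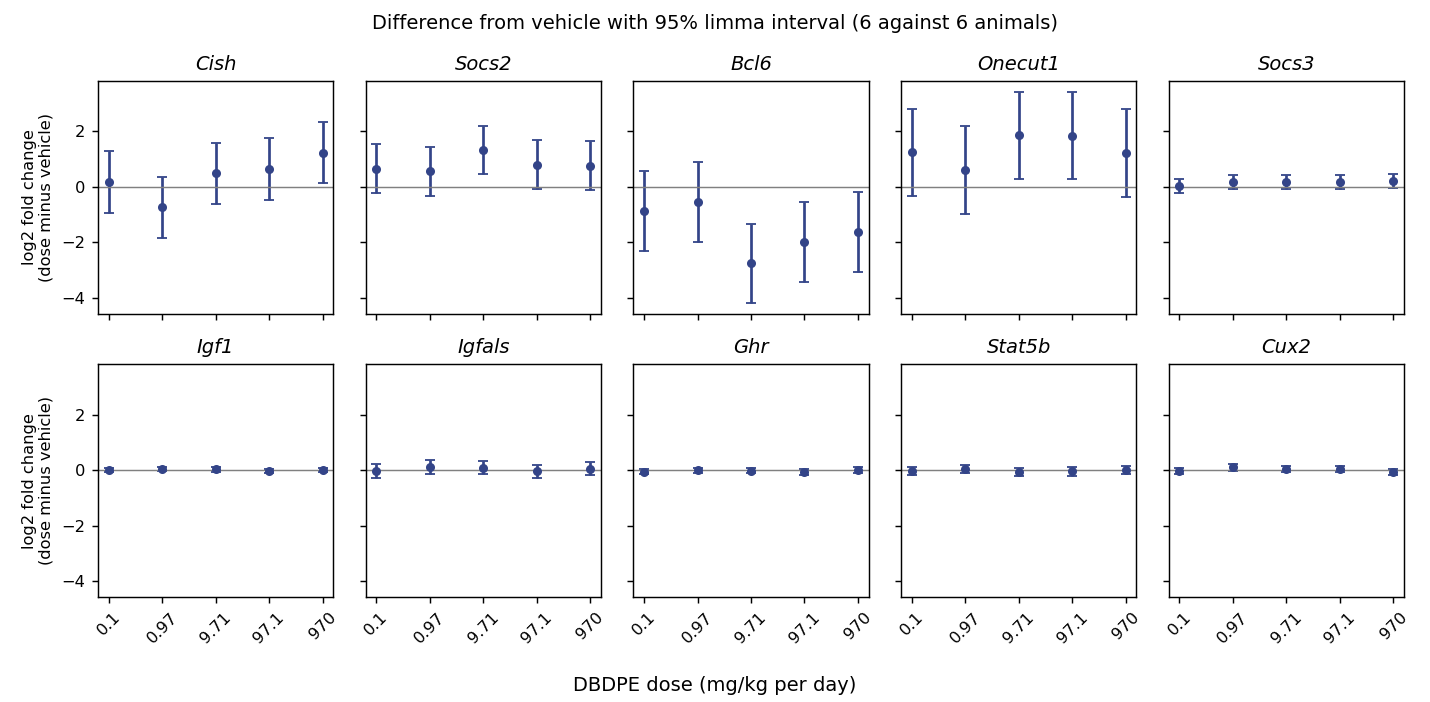
Log2 difference from vehicle (vertical axes) of each member at the 5 doses (horizontal axes, mg/kg), with the 95% interval from limma. Intervals of Bcl6, Onecut1, Socs2 and Cish are wide and 7 of the 50 leave out 0, before any adjustment.

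Bcl6, Onecut1, Socs2 and Cish moved together between animals once the dose group means were taken out. Livers with high Bcl6 had low Onecut1, at r = -0.89 (Spearman rho -0.84) over 36 animals, and the sign was the same in all 6 groups, from -0.99 to -0.30. The weakest value was that of the 9.71 mg/kg group, in which all Bcl6 levels were low. Socs2 rose with Onecut1 at r = 0.86 (rho 0.84, 0.73 to 0.96 within groups) and ran against Bcl6 at r = -0.75 (rho -0.73, -0.96 to -0.42 within groups). These values come from the same arrays, and the covariation was part of how the genes were chosen, so they carry no test.

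Cish was tied to the other 3 more loosely. Its r was 0.58 with Onecut1 (rho 0.58), -0.53 with Bcl6 (rho -0.48) and 0.45 with Socs2 (rho 0.44). The other Cish probe set had 0.66, -0.60 and 0.54. With each animal left out, the 3 values of the brightest probe set ran from 0.54 to 0.70, -0.60 to -0.48 and 0.39 to 0.57. All 3 were largest in size without replicate 6 of the 0.97 mg/kg group. In that group the sign of Cish turned, to -0.32 with Onecut1 and -0.59 with Socs2, whereas the other 5 groups had the common sign. With Onecut1 taken out as well, the values of Cish fell to -0.12 with Socs2 and -0.05 with Bcl6. That of Socs2 and Bcl6 fell to 0.07, while Bcl6 and Onecut1 kept -0.84 with Cish taken out and -0.72 with Socs2 taken out. Onecut1 and Socs2 had 0.82 with Cish taken out and 0.65 with Bcl6 taken out. Cish and Onecut1 fell to 0.28 with Bcl6 taken out. Which of these correlated genes carries the tie was not tested.

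**Figure D3:**
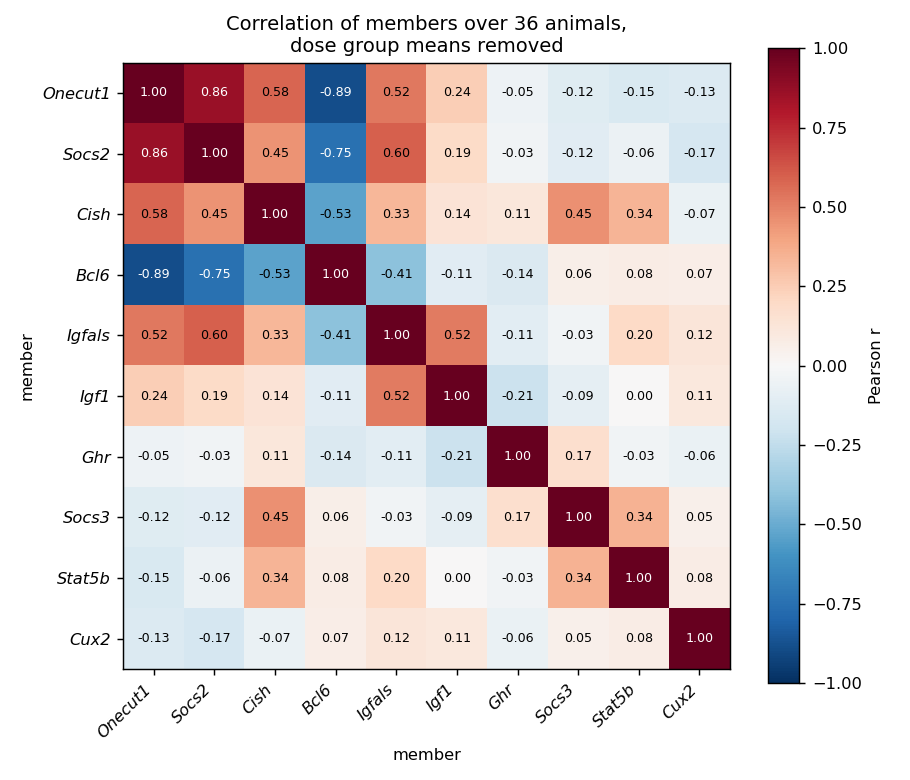
Pearson r between the 10 members over 36 animals with the dose group means removed, on a colour scale from -1 (blue) to 1 (red), with the members on both axes. Onecut1, Socs2, Cish and Bcl6 form a block at the upper left in which Bcl6 has the opposite sign, and Igfals adjoins it with r of 0.60 to Socs2 and 0.52 to Onecut1.

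Single animals show the looser tie of Cish. In replicate 6 of the 0.97 mg/kg group Cish was at its group's highest level (7.29) while Onecut1 (6.49) and Socs2 (6.64) were at their lowest and Bcl6 was 9.16. Replicate 2 of that group had the lowest Bcl6 (6.18) and the highest Onecut1 (10.4), with Socs2 at 8.33, and its Cish level of 5.91 was only 0.16 above the group mean. Replicate 2 of the 0.1 mg/kg group combined Onecut1 at 9.80, above its group mean, with Cish at 5.59, below its group mean. Replicate 2 of the 97.1 mg/kg group followed the common pattern at its extreme, with Bcl6 at 10.1 and Onecut1 at 6.42. The other 5 animals of that group had no Bcl6 level above 7.04 and no Onecut1 level below 9.26.

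**Figure D4:**
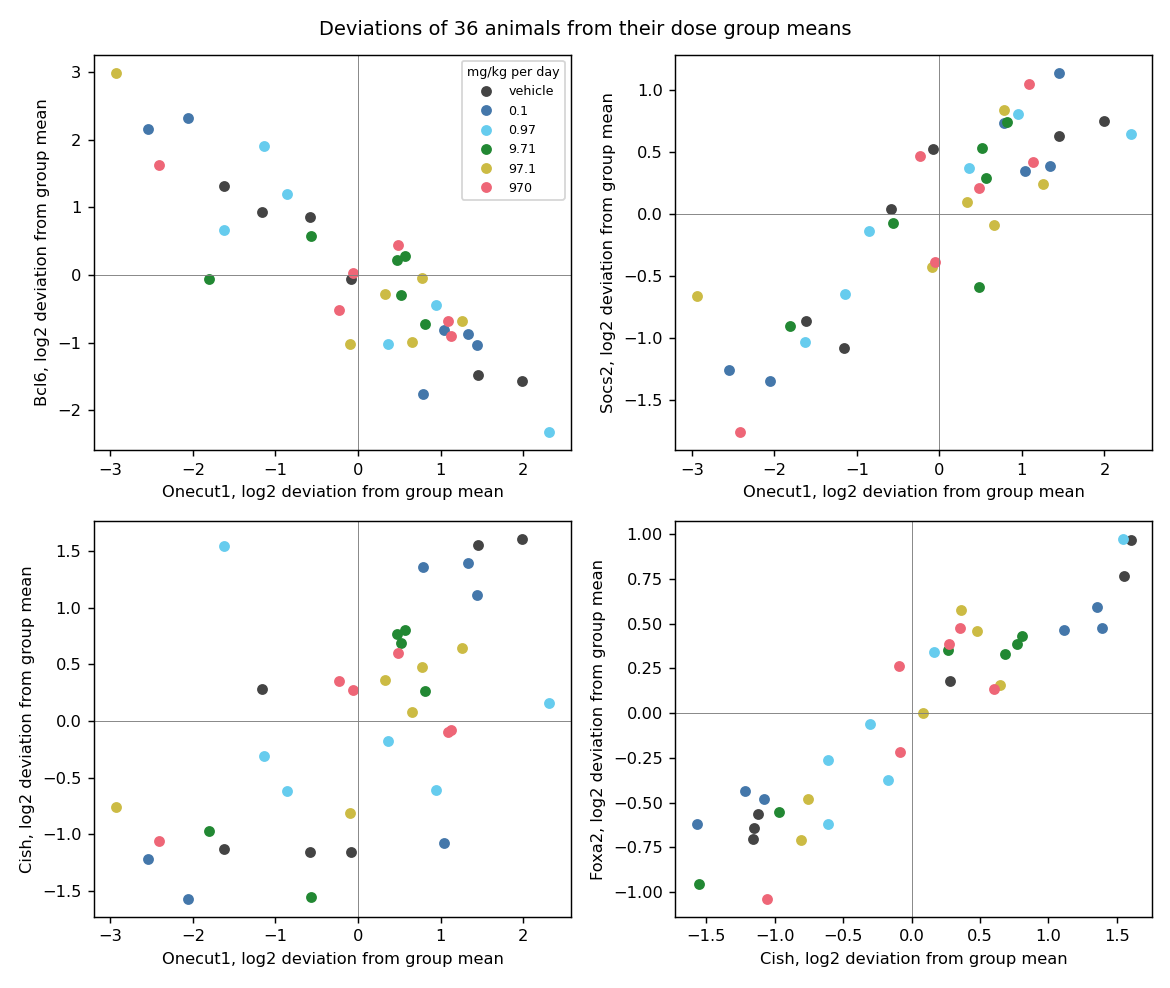
Deviation of each of the 36 animals from its dose group mean (log2), coloured by dose in mg/kg. The panels hold pairs of members, and Foxa2, a liver transcription factor outside the members, against Cish (r = 0.93). Bcl6 against Onecut1 (r = -0.89) and Socs2 against Onecut1 (r = 0.86) fall along narrow bands, and Cish against Onecut1 (r = 0.58) is broader.

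Of the slow outputs, Igfals went with Socs2 (r = 0.60, rho 0.67), Onecut1 (r = 0.52) and Igf1 (r = 0.52, rho 0.34). The Igf1 relation was 0.29 without vehicle replicate 3, whose Igfals level of 9.51 was the lowest of all animals. Igf1 itself had r of 0.24 with Onecut1, 0.19 with Socs2, 0.14 with Cish and -0.11 with Bcl6 at its brightest probe set. The total range there was 0.24 log2 units. At the other 2 Igf1 probe sets r was 0.42 and 0.28 with Socs2 and 0.32 and 0.19 with Onecut1. With Cish it was 0.15 and 0.05, with Bcl6 -0.12 and -0.10, and with Igfals 0.67 and 0.49. Socs3, the third SOCS gene, had r of 0.45 with Cish (rho 0.42) but -0.12 with both Socs2 and Onecut1, and its sign with Cish differed between groups (-0.48 to 0.76). Stat5b had r of 0.34 with Cish and with Socs3, and -0.15 with Onecut1. The main Ghr probe set had no r beyond 0.21 in size with any other member. The other one, which followed it at only 0.36, had r of -0.51 with Bcl6, 0.47 with Socs2 and 0.47 with Igfals, so the 2 Ghr measurements give different pictures. At the brightest probe sets the size of r was 0.45 to 0.89 over the 6 pairs among Bcl6, Onecut1, Socs2 and Cish. Over the 39 other pairs it was 0.003 to 0.60.

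To see which other transcripts followed a member from animal to animal, the level of each member in turn was set as a covariate beside the dose groups in limma over all other probe sets. Onecut1 had 371 probe sets past an adjusted p of 0.05 (1.2% of those tested), of which 292 rose with it (0.941%) and 79 fell (0.255%). Bcl6 had 257 (0.828%), and here 212 fell as it rose and 45 rose with it. Cish also had 257 (0.828%), with 194 rising and 63 falling, and Socs2 had 108 (0.348%), with 76 rising and 32 falling. Among these were 4, 4, 2 and 3 probe sets of other members, which are part of the description above and no test. Socs3 had 1 probe set (0.00322%), which names no gene. Igf1, Igfals, Ghr, Stat5b and Cux2 had 0 (0%), with 2328, 2181, 2186, 2206 and 1486 at an unadjusted p under 0.05. Some counts rested on single animals. Cish had 169 without vehicle replicate 6, Socs2 had 55 without replicate 1 of the 0.1 mg/kg group, and Bcl6 had 146 without replicate 2 of the 0.97 mg/kg group.

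**Figure D5:**
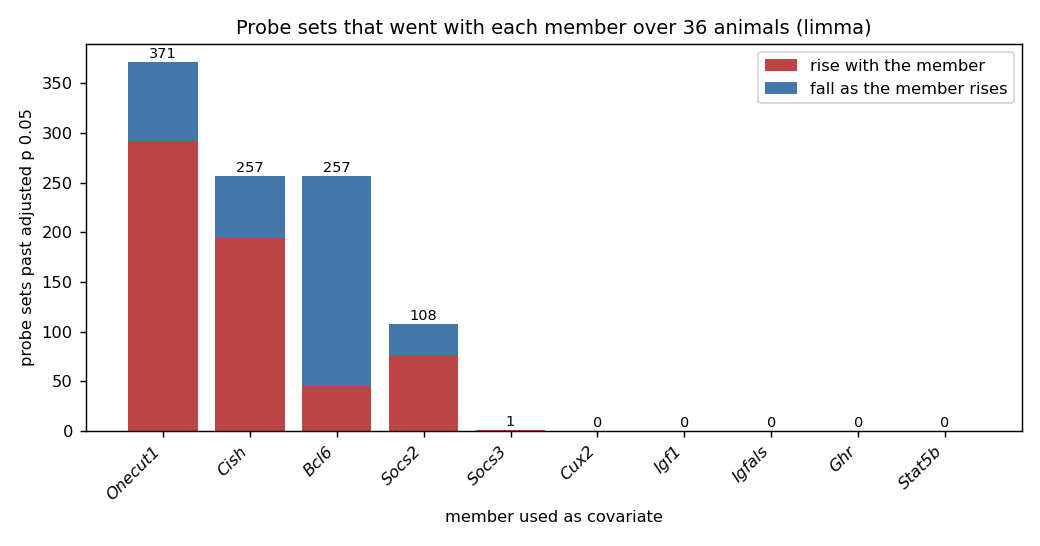
Number of probe sets (vertical axis) past a limma adjusted p of 0.05 when the level of each member (horizontal axis) was the covariate beside the dose groups, split into those that rose (red) and fell (blue) with it. Onecut1, Cish, Bcl6 and Socs2 have 371, 257, 257 and 108, Socs3 has 1, and the other 5 members have 0; for Bcl6 most fell.

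The genes closest to Cish were Foxa2 (r = 0.93, rho 0.92, limma adjusted p 3.707e-12), a forkhead factor that opens liver chromatin, and Hhex (r = 0.93, rho 0.93, limma adjusted p 5.289e-12), a homeobox factor of liver development. Foxa2 ranged from 7.80 to 9.78 over the animals, with r of 0.88 to 1.00 within the 6 groups. Hhex ranged from 9.44 to 11.4, with 0.84 to 0.98 within groups. Each log2 unit of Cish went with 0.55 of Foxa2 and 0.53 of Hhex. Vgll4 (r = 0.89), a partner that represses TEAD factors, Net1 (r = 0.89), an exchange factor for RhoA, and Rgs3 (r = 0.85), a regulator of G protein signalling, were next.

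The genes that fell as Cish rose were led by Depp1, a FoxO target induced by fasting (r = -0.80, limma adjusted p 1.112e-05). Within the 6 groups its r ran from -0.95 to -0.23. Sall1 (r = -0.75) and Tbx3 (r = -0.72), both developmental transcription factors, Tead1 (r = -0.75), a DNA-binding factor of the Hippo pathway, and Ciapin1 (r = -0.73), an iron-sulphur cluster assembly protein, followed. Vgll4 and Tead1, whose proteins are known to bind each other, lay on opposite sides. Depp1 differed from vehicle by -0.99 at 970 mg/kg (95% interval -1.50 to -0.49, limma adjusted p 0.803). With the levels of Cish and Bcl6 beside the dose groups this was -0.58 (-0.92 to -0.24, limma adjusted p 0.973). Sall1 differed by -0.98 (-1.68 to -0.28), and by -0.34 (-0.86 to 0.17) beside Cish and Bcl6.

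Foxa2 had r of 0.55 with Onecut1, 0.45 with Socs2 and -0.49 with Bcl6, beside 0.93 with Cish, and the difference between these values was not tested. With Onecut1 as a further covariate Cish still had 388 probe sets past the threshold (1.25%), and Onecut1 beside Cish had 465 (1.5%). Cish beside Bcl6 had 333 and Bcl6 beside Cish had 331 (1.07% each). In contrast, Socs2 beside Onecut1 had 1 (0.00322%), and Onecut1 beside Socs2 had 177 (0.57%). The promoter windows of Foxa2, Hhex, Net1 and Rgs3 held no TTCNNNGAA, and the 3 windows of Vgll4 held 1, beside 8.87% of all promoters. ATTGAT occurred in the window of Foxa2 and in none of Hhex, Vgll4, Net1 and Rgs3, beside 8.06% of all promoters. At such shares a few windows need not hold either spelling.

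Socs2 was followed most closely by Slc25a30 (r = 0.87, rho 0.85, limma adjusted p 5.792e-08), a mitochondrial carrier, with 0.71 to 0.95 within the 6 groups for its brighter probe set. Atxn1l (r = 0.84), a partner of the repressor Capicua, Xbp1 (r = 0.81), the transcription factor of the unfolded protein response, LOC102549203 (r = 0.79) and Ahctf1 (r = 0.79), a nuclear pore protein, came next. Falling as Socs2 rose were Btg1 (r = -0.80), which restrains proliferation, Lrig3 (r = -0.73) and Stag1 (r = -0.72), a cohesin subunit. Eps8 (r = -0.70), an actin regulator, and Fzd8 (r = -0.65), a Wnt receptor, fell too. Most of these genes had a larger r in size with Onecut1 than with Socs2. The r with Onecut1 was 0.94 for Slc25a30 and LOC102549203, 0.90 for Atxn1l and Xbp1, -0.82 for Lrig3 and -0.75 for Fzd8. Those of Stag1 (-0.72) and Eps8 (-0.71) were nearly the same as with Socs2. Ahctf1 (0.77) and Btg1 (-0.80) went slightly the other way. These differences were not tested.

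Among the genes of Bcl6, Slc25a30 fell as Bcl6 rose (r = -0.85, rho -0.78, limma adjusted p 6.112e-07) and stood first. Nedd9 (r = -0.82), a scaffold of focal adhesions, Rbm15 (r = -0.82), an RNA-binding protein, Tmx4 (r = -0.82), a thioredoxin-like protein of the endoplasmic reticulum, and Rtp3 (r = -0.80) fell too. Rin2 (r = 0.81), a Rab5 exchange factor, Zfp41 (r = 0.77), Abcb9 (r = 0.77), a lysosomal peptide transporter, Lrig3 (r = 0.74) and Rusc2 (r = 0.72) rose with it. Lrig3 and Slc25a30 are therefore shared with Socs2 in opposite directions. Most genes named for Bcl6 had a larger r in size with Onecut1. This r was 0.94 for Slc25a30, 0.87 for Tmx4, 0.84 for Rbm15 and Rtp3, and -0.82 for Lrig3. For Rin2 (-0.81), Nedd9 (0.83) and Rusc2 (-0.75) it was close in size to that with Bcl6. For Abcb9 (-0.73) and Zfp41 (-0.75) the r with Bcl6 was the larger in size. These differences were not tested.

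The probe sets that went with Bcl6 were largely among those of Onecut1. Leaving out the probe sets of both genes, 229 were shared, which is 89.8% of the 255 of Bcl6 and 61.9% of the 370 of Onecut1. Socs2 shared 90 with Onecut1, or 84.9% of its 106. Cish shared 104 with Onecut1, which is 40.8% of its 255 and 28.2% of the 369 of Onecut1, and 36 with Socs2, which is 14.0% of its 257 and 33.3% of the 108 of Socs2. All of these fits use the same 36 animals and covariates that are correlated with each other, so the shares are a description.

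Genes of the wider pathway were read from lists, and those named for a call with Onecut1 or Bcl6 were chosen after their values were seen. Among 20 measured genes of growth hormone signal transduction, such as Jak2, Stat5a and Socs1, 0 passed the limma test with Cish, Socs2, Bcl6 or Onecut1, and 1, 1, 1 and 2 had an unadjusted p under 0.05. Over all probe sets tested with each (31040 or 31041), 2745, 2310, 2798 and 2778 had such a p. These numbers are the background for every list below. Of 11 genes of the IGF axis, Igfbp1, an insulin-repressed IGF binding protein, fell as Onecut1 rose (r = -0.57, limma adjusted p 0.0278), and no other call was made with these 4 members. The median r of this list with Onecut1 was -0.22.

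Of 20 liver transcription factors, 1 rose and 3 fell as Cish rose. Foxa2 was the one that rose, and Prox1 (r = -0.70, limma adjusted p 0.00184), Hnf4a (r = -0.60, limma adjusted p 0.0347) and Nr0b2 (r = -0.56, limma adjusted p 0.0480), the bile acid-induced repressor also called SHP, fell. With Onecut1, 5 rose and 1 fell. The paralog Onecut2 (r = 0.72), Cebpb (r = 0.68), Cebpa (r = 0.65), Foxa2 (r = 0.55) and Foxa3 (r = 0.55) rose, and Nr0b2 fell (r = -0.62). With Bcl6, Cebpb (r = -0.71) and Onecut2 (r = -0.67) fell and 0 rose, and with Socs2 0 of 20 passed. An unadjusted p under 0.05 was met by 9, 11, 12 and 12 of the 20 with Cish, Socs2, Bcl6 and Onecut1.

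The sex-biased liver genes, which are the classic long-term readout of the growth hormone pattern, gave no call. Over all probe sets 0.828%, 0.348%, 0.828% and 1.2% were called with Cish, Socs2, Bcl6 and Onecut1. At such shares a list of this size need not hold a call. Of 16 male-biased genes, including Cyp2c11, 0 passed with Cish, Socs2, Bcl6 or Onecut1, and 0, 1, 0 and 1 had an unadjusted p under 0.05. Cyp2c11, the main male P450, was named as the best-known of them and had r of 0.20 with Cish and an SD between animals of 0.08. Of 13 female-biased genes 0 passed with any of the 4, and 2, 1, 1 and 0 had an unadjusted p under 0.05. Each gene was read from its brightest probe set. A dimmer one of Rup2, a male urinary-protein-like gene picked out after its value was seen, rose with Cish (r = 0.85, limma adjusted p 1.350e-07), whereas the brightest one of Rup2 had r of 0.19 at a mean signal of 14.0. Probe sets of such multigene families can share signal with near-identical copies.

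Of 25 other growth hormone targets, 4 rose with Cish and 1 fell. The immediate-early genes Jun (r = 0.76, limma adjusted p 7.784e-05), Ier3 (r = 0.70), Myc (r = 0.58) and Junb (r = 0.57) rose, Junb being named after its value was seen. Cyp7a1, whose enzyme sets the rate of bile acid production, fell (r = -0.69, limma adjusted p 0.00159). Cyp7a1 also fell as Socs2 rose (r = -0.60, limma adjusted p 0.0403) and as Onecut1 rose (r = -0.64, limma adjusted p 0.00522), and it rose with Bcl6 (r = 0.58, limma adjusted p 0.0309). It was the only gene of this list called with all 4. The log2 difference of Cyp7a1 from vehicle at 970 mg/kg was -1.07, with a limma adjusted p of 0.966. Jun fell as Bcl6 rose (r = -0.58) and rose with Onecut1 (r = 0.60).

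Of 19 genes of the glucocorticoid and fasting response, Dusp1 and Pdk4 rose with Cish (r = 0.77 each, limma adjusted p 3.156e-05 and 3.299e-05). Dusp1 is a MAP kinase phosphatase and Pdk4 restrains glucose oxidation in fasting. Sgk1, a kinase induced by glucocorticoids, fell as Bcl6 rose (r = -0.70) and rose with Onecut1 (r = 0.77). With Socs2 0 of the 19 passed. An unadjusted p under 0.05 was met by 11, 10, 9 and 12 of them with Cish, Socs2, Bcl6 and Onecut1. Of 18 circadian clock genes, only Bhlhe40 was called, rising with Cish (r = 0.67) and Onecut1 (r = 0.65) and falling with Bcl6 (r = -0.63). Of 19 acute phase genes 0 passed with the 4 members, and 3, 4, 1 and 3 had an unadjusted p under 0.05 with Cish, Socs2, Bcl6 and Onecut1. Feeding state and the hour of necropsy are not given for single animals, and their part in these values was not tested. At 970 mg/kg 0 genes of any of these lists passed the limma test against vehicle; the median log2 difference was 0.01 for male-biased genes, 0.07 for female-biased genes and -0.02 for signal transduction, beside 0.00 for all probe sets. In each list 0 to 4 genes had an unadjusted p under 0.05 there.

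Markers of other cell types and RNA quality were set beside the 4 variable members. Hepatocyte markers had a mean level of 13.8 to 13.9 in all animals. This lies above the signals of Igf1, and whether saturation narrowed its spread was not tested. Of the measured markers in 9 lists, 0 passed with Cish, Socs2, Bcl6 or Onecut1, and at most 2 of a list had an unadjusted p under 0.05. The summed levels of the lists had r between -0.37 and 0.31 with these members, both extremes being the stellate and fibroblast list, with Onecut1 and Bcl6, whose mean level lay between 6.84 and 7.61. The excess of the 3′ over the 5′ probe set of beta-actin, a control for RNA integrity that ranged from 1.02 to 1.33, had r between -0.06 and 0.03 with the same 4. The 2 genes that passed the limma test at 97.1 and 970 mg/kg, Cyp1a1 and Cyp1a2, passed again with the levels of Cish and Bcl6 beside the dose groups, at a log2 difference of 6.29 and 0.91 at 970 mg/kg, and no other did.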

How the data were processed

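Per the labels' protocols and the submitters' processing notes, the authors hybridised 1 Affymetrix array per sample and used RMA in the affy package (versions not stated), which gave the deposited log2 signal of each probe set. Each numbered sample was taken as its own rat; otherwise p-values measure technical spread. The precision is limited by 6 arrays a group. Platform symbols named the probe sets (57 controls left out, and 20758 of 20826 naming 1 gene matched RefSeq). The brightest one stands for a member or a listed gene. No filter was applied, so all 16 member probe sets were tested.

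Limma 3.58.1 in R 4.3.3 (lmFit, eBayes; two-sided; Benjamini-Hochberg over all probe sets; threshold 0.05) compared each dose with vehicle over 36 arrays, and fitted each member's level beside the dose groups without that gene's probe sets. Correlations used deviations from group means. For Cish, Socs2 and Bcl6 the 5 genes of smallest p per direction are named, each at its probe set of smallest p, which need not be the brightest. Up to 4 of each list are named by p with Cish, and exceptions are marked. Scripts were tested on simulated data. Members, lists and design were chosen with earlier results of these data known. Same-numbered samples of different groups had residuals over all probe sets with r from -0.25 to 0.26 (mean 0.0048, 15 of 90 pairs over 0.1). The numbers were not used as pairs in the main fits. Cish lay below its group mean in replicate 3 of each group, and whether the numbers stand for a shared factor was not tested.

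Alternatives were a replicate block, centring, cyclic loess, a beta-actin covariate, a filter on low values, a robust intensity trend, the 12 compared samples alone, a threshold of 0.1, averaged probe sets, pooled or rank correlations, fewer animals, and each animal left out. Second members as covariates were added after seeing the data.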

Additional observations from a re-analysis of the deposited data

Results flagged for a closer look

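Among 60 combinations of a member and a dose group, 5 held an animal set apart from the other 5 by Dixon's criterion at the 95% level, which chance meets in about 1 in 20 groups. Bcl6 was 10.1 in replicate 2 of the 97.1 mg/kg group, with the nearest animal at 7.04. Onecut1 was 6.42 in the same animal, with the nearest at 9.26. Cish was 7.29 in replicate 6 of the 0.97 mg/kg group, with the nearest at 5.91. Igfals was 9.51 in vehicle replicate 3, with the nearest at 10.2. Stat5b was 5.75 in replicate 3 of the 97.1 mg/kg group, with the nearest at 5.88.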

How the results depend on the processing

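The number of member probe sets past the threshold against vehicle was 0 under each alternative and with each animal left out, which is a description, since the levels by dose helped to choose the members. The alternatives were run for 10 pairs of members, and the correlations of these pairs kept their sign in all of them. Those of Bcl6 and Onecut1 stayed between -0.92 and -0.84, and those of Socs2 and Onecut1 between 0.84 and 0.89. The near-zero differences at 970 mg/kg changed sign in places. Igf1 was -0.0078 and Stat5b -0.0036 with the beta-actin difference as a covariate, and Ghr was -3.53e-04 with centred arrays. With each animal left out, Igf1 ran from -0.0192 to 0.0293, Igfals from -0.0803 (without vehicle replicate 3) to 0.101, Ghr from -0.0203 to 0.0212 and Stat5b from -0.0230 to 0.0468.

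The numbers of probe sets that went with a member moved more. With the replicate number as a block, Cish had 125, Bcl6 140 and Socs2 47, and Onecut1 had 281; no member call against vehicle changed. Without the 2 animals farthest from the median, Bcl6 had 152 and Onecut1 243. In vehicle and the 3 lowest doses alone, with fewer animals, Socs2 had 42, Bcl6 99 and Onecut1 210. With Onecut1 as a further covariate Cish had 388 and Socs2 1, and with Socs2 as one Onecut1 had 177. With each animal left out, Cish had 169 (without vehicle replicate 6) to 278, Onecut1 248 to 493, Socs2 55 to 148 and Bcl6 146 to 327. The count moved by over 1.5 times for Socs2 without replicates 1 or 3 of 0.1 mg/kg or replicate 4 of 9.71 mg/kg, and for Bcl6 without replicate 3 of 0.1 mg/kg, replicate 2 of 0.97 mg/kg or replicate 2 of 97.1 mg/kg. The cause was not tested.

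Signals of Socs3 and Cux2 lie below the array medians, and those of Igf1 and Ghr near the top of the range, which limits what their spread says. A single liver sample per animal gives 1 moment of a pulsatile hormone, which itself was not measured.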
